A study of Mus musculus with 8 samples.

Results

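The genes described here make, sense, move, store and export cholesterol. The set is a fixed list of 28 genes of the 32285 genes in the count tables. It was chosen by the known roles of the genes, with earlier results of these data known. It holds 4 regulators (Srebf2, Scap, Insig1, Nr1h2), 7 enzymes of the mevalonate arm (Acat2, Hmgcs1, Mvk, Pmvk, Mvd, Idi1, Fdps), 11 enzymes from squalene to cholesterol (Fdft1, Sqle, Lss, Cyp51, Tm7sf2, Msmo1, Nsdhl, Hsd17b7, Ebp, Sc5d, Dhcr7), 4 genes of transport and storage (Stard4, Npc1, Npc2, Soat1) and 2 exporters (Abca1, Abcg1). All 28 were found once each in the tables.

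The cells were OT-I T cells with the CD90.1 mark of transduction, taken by sorting from primary KPC_OVA tumours, an orthotopic mouse model of pancreatic ductal adenocarcinoma that carries ovalbumin, the antigen that the OT-I receptor recognises. All of them carried the Cas9 knock-in and a lentiviral guide library against metabolic genes with nontargeting guides (sgNT), in the CROP-seq format that reads the guide and the transcriptome of the same cell. The donors were OT-I:Rosa26-Cas9 mice on a Rag2/OT-I cross and the recipients Rosa26-Cas9 mice with an immune system of their own. The mice were 6 to 12 weeks old, T cells were isolated from mice of 6 to 10 weeks, and all carried constitutive Cas9. Cells were taken 7 days after transfer, from mice given anti-PD-1 (3 libraries) or control IgG (1 library). The mice came from separate experiments. Mice are given per treatment only and not per library, nor is the experiment a library came from, so no p-value measures the spread between mice. Between treatments p-values measure the spread between libraries. Where a library gives several sums, they measure how the difference between sums varies from library to library. In their titles anti-PD-1 1 and 2 share an identifier and differ in its suffix, while anti-PD-1 3 and IgG each have one of their own. What the identifier stands for is not stated, so whether anti-PD-1 1 and 2 are independent of each other is not known.

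Cells cover their need for sterol by synthesis and by uptake of lipoproteins. When sterol in the endoplasmic reticulum falls, Scap escorts the transcription factor encoded by Srebf2 to the Golgi, where it is cut and released to switch on genes of synthesis and uptake, and Insig1 holds the complex back when sterol is plentiful. The receptor LXR beta, encoded by Nr1h2, responds to oxidised sterols and drives export through Abca1 and Abcg1. Activated T cells are known to raise sterol synthesis before they divide, because each division needs new membrane.

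The promoters below show the sequence context of members that recur in the results. They come from the RefSeq table of GRCm38.p6, which matched 22 of the 28 genes, and each is the 250 bases before the start of transcription. Capitals mark the sterol regulatory element letters TCACNCCA and the CCAAT box, searched on both strands. Hmgcs1, Srebf2 and Msmo1 are shown because they were the 3 of 22 genes with the sterol element in this window, Idi1 as the mevalonate gene with the steepest change over the cell cycle after Acat2, and Npc2 as the most abundant gene, which fell in S and G2M phase where most of the genes rose.

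Hmgcs1, chr13:119690101-119690350, plus strand: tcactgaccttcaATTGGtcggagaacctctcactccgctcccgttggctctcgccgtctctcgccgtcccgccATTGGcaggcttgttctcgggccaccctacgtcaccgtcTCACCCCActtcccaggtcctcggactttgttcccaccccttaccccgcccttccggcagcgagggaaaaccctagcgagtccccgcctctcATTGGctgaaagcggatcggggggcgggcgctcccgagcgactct
Srebf2, chr15:82147019-82147268, plus strand: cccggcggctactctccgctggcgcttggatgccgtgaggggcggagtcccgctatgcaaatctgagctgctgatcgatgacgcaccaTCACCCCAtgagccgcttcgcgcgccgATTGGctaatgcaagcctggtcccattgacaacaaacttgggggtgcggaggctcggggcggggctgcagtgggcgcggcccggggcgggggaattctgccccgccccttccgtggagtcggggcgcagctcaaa
Msmo1, chr8:64733579-64733828, minus strand: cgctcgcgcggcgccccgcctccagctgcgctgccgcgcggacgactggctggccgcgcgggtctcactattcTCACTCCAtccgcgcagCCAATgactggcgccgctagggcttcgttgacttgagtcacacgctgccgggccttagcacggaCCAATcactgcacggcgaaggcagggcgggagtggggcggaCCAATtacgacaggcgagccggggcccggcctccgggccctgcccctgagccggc
Idi1, chr13:8885356-8885605, plus strand: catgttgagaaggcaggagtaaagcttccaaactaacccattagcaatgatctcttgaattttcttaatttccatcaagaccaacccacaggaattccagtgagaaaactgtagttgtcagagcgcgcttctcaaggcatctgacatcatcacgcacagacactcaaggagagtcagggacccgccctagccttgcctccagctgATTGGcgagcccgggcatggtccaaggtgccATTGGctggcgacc
Npc2, chr12:84773113-84773362, minus strand: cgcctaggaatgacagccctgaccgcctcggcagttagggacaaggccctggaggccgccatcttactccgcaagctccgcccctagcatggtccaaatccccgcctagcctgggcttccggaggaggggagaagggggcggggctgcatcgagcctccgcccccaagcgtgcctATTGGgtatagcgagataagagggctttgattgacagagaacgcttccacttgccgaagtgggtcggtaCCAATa

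The sterol element letters occurred in 3.67% of 32851 mouse promoters of this length. The CCAAT box occurred in 33.9% of them and in 18 of the 22 matched genes, Npc2 included. A match is a description of letters, and the windows of Idi1 and Npc2 held the CCAAT box without the sterol element letters.

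After filtering, 2535, 2597 and 6432 cells of anti-PD-1 libraries 1, 2 and 3 and 11495 cells of the IgG library carried 1 guide each, 23059 in all. Median depth differed between libraries, from 6329 unique molecular identifiers (UMIs, the counted RNA molecules) per cell in IgG to 16829 in anti-PD-1 1, and 3 to 18 cell barcodes were shared between any pair of libraries. The 8 T cell markers summed to 7527 to 8104 CPM (UMI counts scaled to a common total) in each library. A list of 26 markers of tumour, myeloid, B, plasma and stromal cells summed to 27.6 to 220 CPM, with Cldn4 at 0 throughout, and its high value was in anti-PD-1 3, where the plasma cell gene Igkc alone reached 127. Leaving out the 4 to 11 cells per library with 10 or more such UMIs left 24 calls in S phase, 21 in G2M and 18 in the index comparison described below, the same counts as with them, beside 59.5%, 57.9% and 13% of all genes in either direction.

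Most of the genes were expressed at low to moderate levels, and levels are given throughout in the same CPM, counted at the 3′ end and not scaled by gene length. Summed over all kept cells, Npc2, which encodes a lysosomal carrier that hands cholesterol to Npc1, was the highest with 152, 153 and 190 in anti-PD-1 1, 2 and 3 and 166 in IgG. Ebp, a sterol isomerase, followed at 99.4, 106, 104 and 104, and Fdps, which makes farnesyl diphosphate, at 85.4, 86.8, 102 and 90.8. The ranges of Ebp and Fdps overlapped, and all 3 genes lay above the genes that follow.

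Cyp51, the lanosterol demethylase, stood at 62.5 to 82.1, Idi1, the isopentenyl diphosphate isomerase, at 51.2 to 61.3, and Srebf2 at 50.4 to 58.3. Hmgcs1, which makes the precursor of mevalonate, stood at 40.8 to 52.7, and the ranges of Idi1, Srebf2 and Hmgcs1 overlapped. Among the regulators Nr1h2 lay at 39.7 to 44.8, Insig1 at 17.8 to 20.9 and Scap at 14.4 to 16.8. The lowest enzyme was Tm7sf2, a sterol reductase, at 2.29 to 2.81.

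Of the exporters, Abcg1 lay at 5.26 to 6.97. Abca1 had 3, 1 and 3 UMIs in the anti-PD-1 libraries and 6 in IgG, or 13 in all, and was too low to be tested in any comparison, so 27 of the 28 genes entered the tests between treatments, phases and states.

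**Figure D1:**
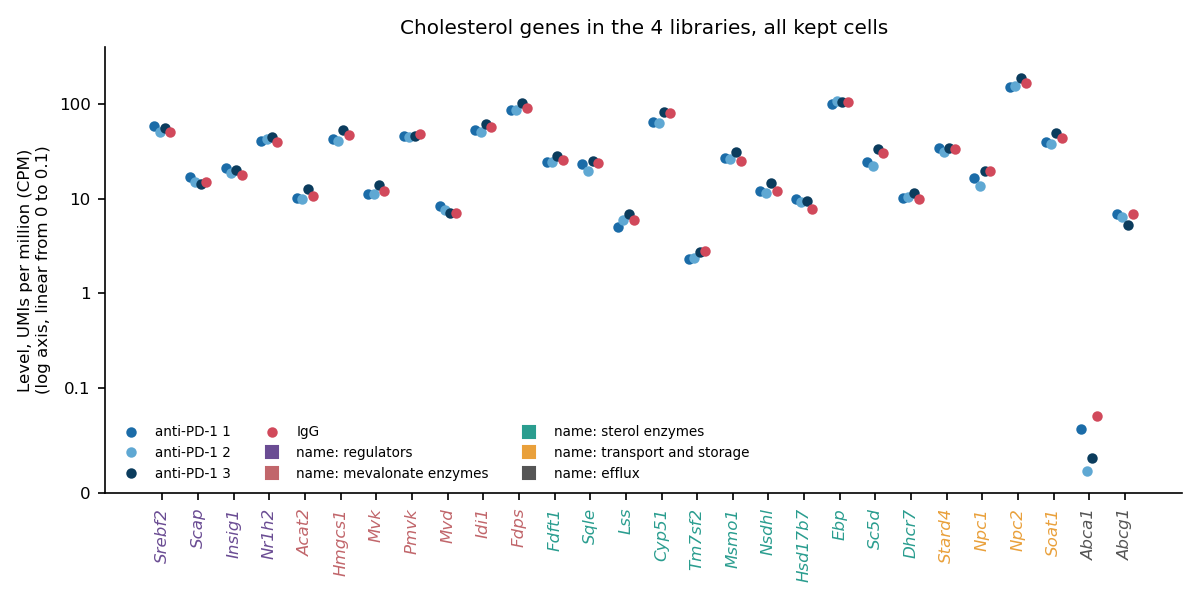
Level of each of the 28 genes in CPM (log axis, linear from 0 to 0.1) in the 3 anti-PD-1 libraries and the IgG library, 1 point per library, gene names coloured by role. The points of each gene lie close together across the range from Npc2 at 152 to 190 down to Abca1 at 0.0208 to 0.0731.

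The first comparison asked whether checkpoint blockade changed these genes. No member passed the test between 3 anti-PD-1 libraries and 1 IgG library. The largest differences (log2 anti-PD-1 over IgG) were 0.29 ± 0.14 (SE) for Hsd17b7, which takes part in removing methyl groups from sterols, and -0.22 ± 0.21 for Npc1. Their 95% intervals ran from -0.07 to 0.65 and from -0.75 to 0.31. Hsd17b7 stood at 10.0, 9.19 and 9.41 under anti-PD-1 and 7.87 under IgG. The median log2 difference was 0.00 over the 27 genes and 0.01 over all genes.

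The background was as empty, since 0% of 13810 genes passed with edgeR, against 282 at an unadjusted p under 0.05, while DESeq2 called 5 genes and no member. The count moved with anti-PD-1 library 3. Without it, 3316 of 13327 genes and 4 members passed, with Hsd17b7 at 0.31 ± 0.12 and Cyp51 at -0.33 ± 0.11, Sc5d, a sterol desaturase, at -0.35 ± 0.10 and Npc1 at -0.35 ± 0.10. The share of members that passed there was below the share of all genes. The libraries fell into pairs by the guides their cells carried. The guide distribution was shared to 77.9% by anti-PD-1 1 and 2, 81.8% by anti-PD-1 3 and IgG, and 63.6% to 67.0% between the pairs. The first pair is the one with the shared title identifier, and the second rests on guide use alone. With all libraries and the pair as a term, 283 genes (2.05%) passed, 1096 had an unadjusted p under 0.05, and no member passed. The 3 members at an unadjusted p under 0.05 in that fit were Abcg1 (-0.41 ± 0.14, adjusted p = 0.14), Msmo1 (0.29 ± 0.11) and Nsdhl (0.27 ± 0.13), and Hsd17b7 stood at 0.26 ± 0.13. In that fit both libraries of the first pair were anti-PD-1. Its treatment difference therefore comes from anti-PD-1 3 against IgG alone, and its residual spread from anti-PD-1 1 against 2. Read directly between anti-PD-1 3 and IgG, the log2 difference (on CPM plus 1) was 0.23 for Hsd17b7 and 0.02 for Cyp51. It was 0.14 for Sc5d and 0.01 for Npc1. In the fit without anti-PD-1 3 the other anti-PD-1 libraries and IgG belong to different pairs, so treatment and pair cannot be told apart there.

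The cell cycle moved most of the list. Each cell was called G1, S or G2M from gene lists that hold none of the 28 genes, and sums per phase were compared within each library. In S phase against G1, 19 of 27 genes were higher and 5 lower, where the background of all 11885 genes was 27.5% higher and 32.6% lower. All 7 mevalonate enzymes rose, as did 10 of the 11 sterol enzymes and Insig1, while 3 of the 4 transport and storage genes, Abcg1 and Nr1h2 fell. The median log2 change was 0.28 over the members and -0.04 over all genes. The libraries differed for Insig1, whose log2 differences (on CPM plus 1) were -0.04, 0.02, 0.54 and 0.41 in anti-PD-1 1, 2 and 3 and IgG, and which did not pass without anti-PD-1 3 or without IgG. Lss, with no rise in anti-PD-1 1, did not pass without anti-PD-1 3. Mvk did not pass without any one of the anti-PD-1 libraries, Soat1 without anti-PD-1 1 or 3, and Mvd without anti-PD-1 1.

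Acat2 had the steepest rise, and the median log2 change was 0.31 over the mevalonate enzymes and 0.34 over the sterol enzymes. Acat2, the thiolase that joins acetyl units at the entry of the pathway, stood in G1 at 6.47, 5.37, 8.0 and 5.51 in anti-PD-1 1, 2 and 3 and IgG, and in S at 13.0, 14.6, 18.4 and 14.8. Every S phase value was above every G1 value, a log2 change of 1.27 ± 0.08 (adjusted p = 8.7e-10). Idi1 went from 38.3, 37.9, 42.0 and 37.4 to 64.1, 66.9, 86.8 and 75.1, a change of 0.92 ± 0.06. Fdps went from 62.8, 64.2, 74.8 and 63.6 to 105, 112, 134 and 115, a change of 0.81 ± 0.04 (adjusted p = 2.5e-11). The G1 and S ranges of both genes were apart in the same way. Pmvk, phosphomevalonate kinase, rose by 0.26 ± 0.03.

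Among the sterol enzymes Tm7sf2 rose by 0.97 ± 0.15, Cyp51 by 0.50 ± 0.05, Dhcr7, the last reductase of one branch, by 0.48 ± 0.07 and Sqle, the squalene epoxidase, by 0.44 ± 0.05. Msmo1, a sterol oxidase that carried the sterol element letters above, was the one sterol enzyme that did not pass, at 0.07 ± 0.05. The regulators Srebf2 (0.04 ± 0.04) and Scap (0.07 ± 0.06) did not pass either.

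Transport and export moved the other way. Npc2 fell by 0.44 on the log2 scale (SE 0.04), from 181, 180.3, 231 and 204 in G1 to 137, 141, 163 and 146 in S, again with no overlap. Npc1, the lysosomal membrane protein that works with it, fell by 0.36 (SE 0.05), and Abcg1 fell by 0.71 (SE 0.09), from 9.14, 8.54, 6.54 and 9.16 to 5.15, 5.26, 4.59 and 5.23. Stard4, a cytosolic sterol carrier, was the exception in its group and rose by 0.58 ± 0.06.

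G2M against G1 gave 17 higher and 4 lower genes, beside 26.5% and 32.1% of all genes. Acat2 (0.86 ± 0.09), Tm7sf2 (0.90 ± 0.15), Idi1 (0.56 ± 0.06), Fdps (0.50 ± 0.04), Stard4 (0.43 ± 0.06), Sqle (0.36 ± 0.06), Sc5d (0.33 ± 0.05), Cyp51 (0.29 ± 0.05), Hmgcs1 (0.29 ± 0.04) and Ebp (0.28 ± 0.03) rose. Npc2 (-0.49 ± 0.04) and Abcg1 (-0.60 ± 0.09) fell. The remaining 9 calls were 7 increases up to 0.43 and the falls of Npc1 and Nr1h2. Nsdhl, which was not higher in anti-PD-1 2, did not pass without anti-PD-1 1, anti-PD-1 3 or IgG, and Npc1 and Nr1h2 did not without anti-PD-1 3. Within anti-PD-1 1 and 2 alone Cyp51 and Sc5d did not pass, nor did Insig1, Pmvk, Soat1, Nsdhl, Npc1 and Nr1h2. The log2 difference of Cyp51 (on CPM plus 1) was 0.11 and 0.06 in these libraries and 0.47 and 0.41 in anti-PD-1 3 and IgG.

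The direct comparison of G2M with S called 4 genes higher and 7 lower of 27, beside 22.6% and 22% of all genes, so both shares of members were close to the background or below it. Higher in G2M were Soat1, which esterifies cholesterol for storage, at 0.32 ± 0.04, Npc1 at 0.16 ± 0.05, Hmgcs1 at 0.14 ± 0.04 and Nr1h2 at 0.11 ± 0.04. Lower in G2M were Hsd17b7 at -0.50 ± 0.11, Acat2 at -0.41 ± 0.08, Idi1 at -0.36 ± 0.05, Fdps at -0.31 ± 0.04, Cyp51 at -0.21 ± 0.05, Stard4 at -0.15 ± 0.06 and Pmvk at -0.14 ± 0.04. Soat1 was lower in S than in G1 (-0.15 ± 0.04) and higher in G2M than in G1 (0.17 ± 0.04).

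**Figure D2:**
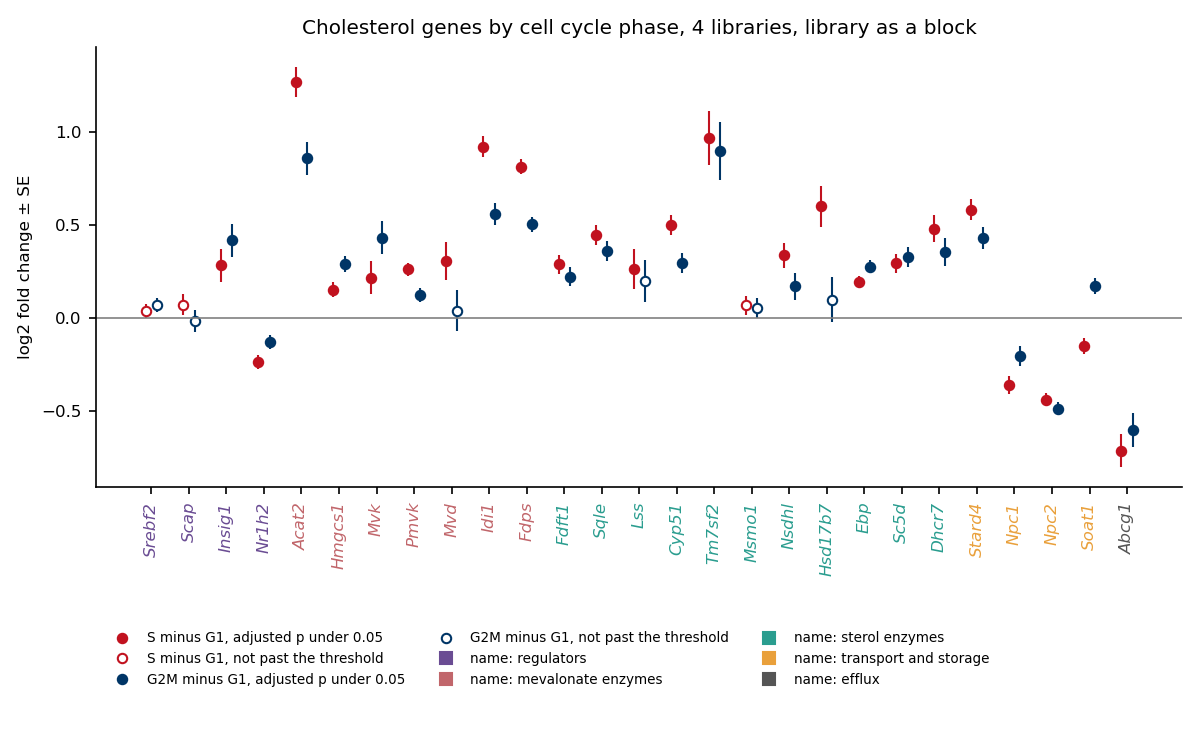
Log2 fold change ± SE of each tested gene in S and in G2M against G1, from 4 libraries with the library as a block. Filled points passed an adjusted p of 0.05. The mevalonate enzymes lie above 0, and Npc1, Npc2, Nr1h2 and Abcg1 below.

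Depth moved with the phase, at a median of 7720 UMIs per cell in G1, 11086 in S and 11888 in G2M. With each cell thinned to 2000 UMIs, 18 genes passed in S (17 of the 24, with the same direction, and Srebf2) and 15 in G2M (14 of the 21, and Srebf2), of 26 tested since Tm7sf2 was then too low to be tested, beside 45.2% and 41.4% of all genes in either direction. Fdft1, Sc5d and Nsdhl did not pass in either phase then, nor Mvd, Lss and Ebp in S and Pmvk, Nr1h2 and Npc1 in G2M. Between G2M and S 7 of the 11 calls were left after thinning, 2 higher and 5 lower, without Cyp51, Hmgcs1, Npc1 and Stard4, beside 25.2% of all genes. Markers of other cell types summed to 31.0 to 105 CPM in G1, 26.0 to 642 in S and 17.8 to 29.6 in G2M. Within anti-PD-1 1 and 2 alone 20 of 27 genes passed in S and 13 in G2M, beside 45.9% and 45% of all genes in either direction, so the G2M share there was close to the background. Within anti-PD-1 3 and IgG the counts were 21 and 23, beside 56% and 54.2%. Without the library as a block 15 passed in S and 12 in G2M, beside 30.1% and 30.7%, and Hmgcs1, Npc1, Mvd, Mvk, Sc5d, Insig1, Lss, Nsdhl and Soat1 did not pass in S, nor Cyp51, Fdft1, Hmgcs1, Sc5d, Pmvk, Soat1, Nsdhl, Npc1 and Nr1h2 in G2M. With sgNT cells alone 13 of 26 tested genes passed in S (12 higher, 1 lower) and 9 in G2M (7 higher, 2 lower), beside 34.1% and 33.2% of all genes in either direction. The G2M share of members there was close to the background. Of the named genes, 11 were tested there. In S 3 of them did not pass, the falls of Abcg1 (-0.30) and Npc1 (-0.37) among them, and in G2M 2 did not. Of 24 further sterol genes, 19 were tested, with 5 higher and 11 lower in S. One of them, Lbr, is itself on the G2M list. Of 18 fatty acid genes, 15 were tested and 7 were higher and 3 lower in S. Both lists stand beside 27.5% higher and 32.6% lower among all genes.

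**Figure D3:**
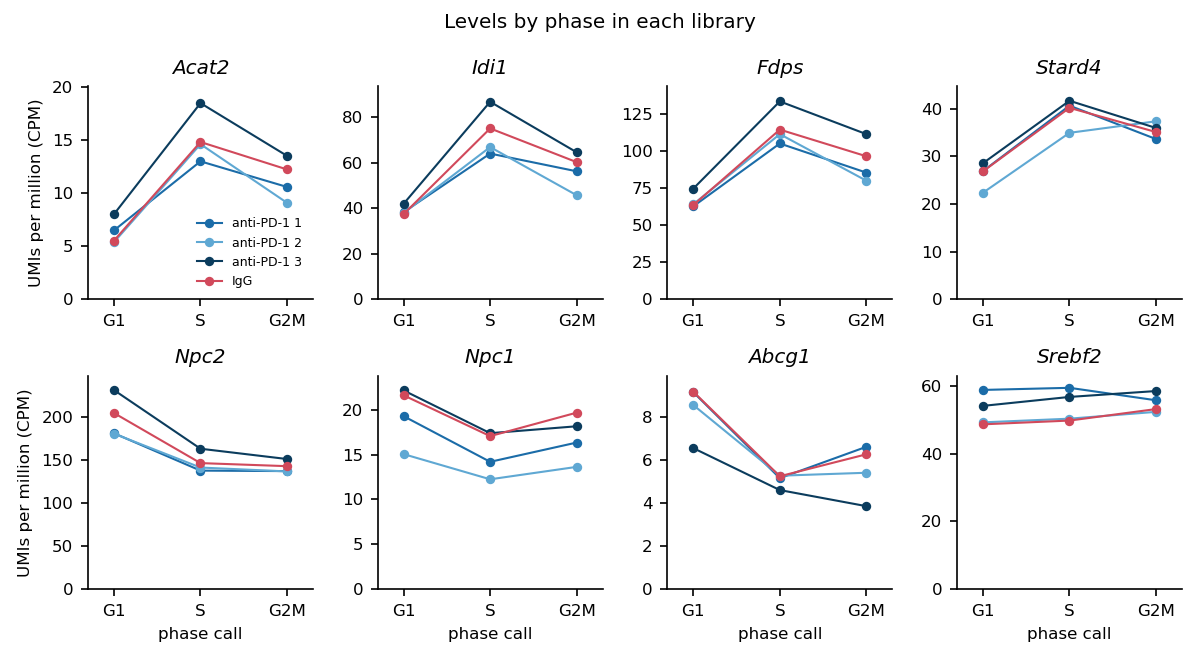
Level in CPM of 8 genes in G1, S and G2M, 1 line per library, each panel starting at 0. Acat2, Idi1 and Fdps peak in S in each library, Npc2 and Npc1 are highest in G1, and Srebf2 stays between 48.7 and 59.5.

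Cells were next divided by 6 lists of state markers, none of which holds a member. A cell took the list with the highest score if that score was more than 1 SD above the mean of its library and depth class, and 11442 cells took none. This gave 2245 precursor-like cells (Tcf7 and Slamf6 among the markers), 2109 memory-like cells (Klf2, S1pr1), 2866 exhausted-like cells (Pdcd1, Havcr2), 1022 granzyme-high cells (Gzmb, Gzmc), 2317 cytokine-high cells (Ifng, Tnf) and 1058 interferon-responding cells (Isg15, Ifit1). Between 7.13% and 11.2% of the cells of a state lay within 0.1 of the limit. A state is a range of a score and not a cell type. Each was tested against the mean of the other 6 classes within libraries, over 10590 genes.

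Precursor-like cells had the most decreases. In them 18 of 27 genes were lower and 1 higher, beside 20.9% and 19.8% of all genes, with a median log2 difference of -0.26 over the members. Their mean level was the lowest of the 7 classes for 15 of the 27 genes, and that of cytokine-high cells for 9. All 4 transport and storage genes, 7 of 11 sterol enzymes, 4 of 7 mevalonate enzymes and 3 of 4 regulators were lower. Stard4 stood at 22.2, 20.04, 21.3 and 20.97 in precursor-like cells of anti-PD-1 1, 2 and 3 and IgG, below its value in every other class of every library, where it lay between 25.7 and 44.9. Its difference was -0.71 ± 0.07 (adjusted p = 7.4e-10). Fdps stood at 61.3, 55.1, 59.9 and 55.8, a difference of -0.64 ± 0.07, and Npc2 at 117, 129, 153 and 143, a difference of -0.42 ± 0.04.

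Fdft1, the squalene synthase, was lower by -0.51 ± 0.07, Hsd17b7 by -0.47 ± 0.11, Insig1 by -0.45 ± 0.08, Npc1 by -0.33 ± 0.08, Cyp51 by -0.31 ± 0.07, Ebp by -0.31 ± 0.04, Idi1 by -0.29 ± 0.06 and Srebf2 by -0.24 ± 0.06. The exporter Abcg1 was the gene that was higher, by 0.51 ± 0.12. These cells were 67.5% G1, the highest share of the 7 classes, which ran down to 40.8% in cells with no state. Among G1 cells alone 14 genes passed, 13 of them as before, beside 30.9% of all genes in either direction, and all 19 differences kept their sign. Hsd17b7, Lss, Sqle, Mvd, Pmvk and Soat1 did not pass there, and Sc5d did. Lss, Msmo1 and Srebf2 in anti-PD-1 1 and Sqle in anti-PD-1 2 were not below the mean of the other classes of their library.

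Memory-like cells were split. Abcg1 (0.65 ± 0.12), Acat2 (0.34 ± 0.09), Npc2 (0.24 ± 0.04) and Ebp (0.16 ± 0.04) were higher and Cyp51 (-0.39 ± 0.07), Msmo1 (-0.29 ± 0.11), Idi1 (-0.29 ± 0.06), Scap (-0.22 ± 0.09), Sqle (-0.21 ± 0.07) and Insig1 (-0.19 ± 0.08) lower, so 4 and 6 of 27 genes beside 21.4% and 20.8% of all genes. Both shares of members were close to the background or below it. Scap in anti-PD-1 3 was not below the mean of the other classes. Abcg1 stood at 11.95, 9.97, 8.19 and 8.64, and its range overlapped that of precursor-like cells (7.21 to 10.4). The G1 share was 44.2%, and among G1 cells 6 genes passed, beside 31.1% of all genes, and Insig1, Msmo1, Scap and Acat2 did not. Without anti-PD-1 3 the count was also 6, beside 34.8%.

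Exhausted-like cells had few calls. All 4 genes of transport and storage were higher, Stard4 by 0.36 ± 0.06, Npc1 by 0.26 ± 0.07, Npc2 by 0.19 ± 0.04 and Soat1 by 0.18 ± 0.05, and Idi1 was lower by -0.24 ± 0.06, which made 4 and 1 of 27 beside 16.9% and 17.7% of all genes. Both shares of members were below the background. Stard4 stood at 44.9, 41.7, 37.6 and 40.3, which overlapped the granzyme-high and interferon-responding cells and lay above the cells with no state (33.2 to 36.2). Among G1 cells 3 genes passed, beside 25.1%, and Npc1 and Soat1 did not. Without anti-PD-1 1 the same 2 genes failed and 3 passed, beside 29.5%.

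Granzyme-high cells had the most increases. In them 10 of 27 genes were higher and 1 lower, beside 11.4% and 11.5% of all genes. Msmo1 (0.68 ± 0.12), Npc1 (0.68 ± 0.09), Hmgcs1 (0.57 ± 0.10), Sqle (0.36 ± 0.08), Scap (0.36 ± 0.11), Fdps (0.30 ± 0.08), Cyp51 (0.29 ± 0.08), Stard4 (0.28 ± 0.08), Srebf2 (0.21 ± 0.07) and Nr1h2 (0.18 ± 0.06) were higher. Abcg1 was lower by -1.37 ± 0.22, at 4.14, 2.95, 2.43 and 1.94, and in each library this was its lowest class. Hmgcs1 stood at 37.9, 54.0, 73.0 and 66.5 and Npc1 at 26.0, 13.3, 29.9 and 31.3. The libraries were not alike. In anti-PD-1 1 Hmgcs1, Msmo1, Fdps and Cyp51 lay below the mean of the other classes, and below its cells with no state (Msmo1 23.7 against 29.8, Fdps 69.2 against 93.9). In anti-PD-1 2 Stard4 (28.5) and Srebf2 (48.1) lay below that mean, and Npc1 lay below its cells with no state (13.9).

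The granzyme result leaned on the IgG library, since 6 genes passed without it (Cyp51, Fdps, Nr1h2, Srebf2 and Stard4 did not), beside 16.6% of all genes in either direction. The class held 104, 122 and 327 cells in the anti-PD-1 libraries and 469 in IgG, and 61.2% were in G1. Among G1 cells alone 7 genes passed, beside 14.5% of all genes, and all 11 differences kept their sign, but the regulators Scap, Srebf2 and Nr1h2 and the enzyme Sqle did not pass.

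Cytokine-high cells had no increase and 10 decreases, beside 23.1% and 20.4% of all genes. Lower were Tm7sf2 (-0.62 ± 0.22), Acat2 (-0.52 ± 0.10), Dhcr7 (-0.49 ± 0.11), Npc1 (-0.46 ± 0.08), Mvd, the mevalonate diphosphate decarboxylase (-0.45 ± 0.13), Mvk, mevalonate kinase (-0.45 ± 0.11), Hmgcs1 (-0.41 ± 0.09), Msmo1 (-0.35 ± 0.11), Sc5d (-0.27 ± 0.09) and Npc2 (-0.14 ± 0.04). Hmgcs1 stood at 34.7, 26.3, 33.4 and 36.2, against 46.9, 45.3, 59.1 and 51.7 in cells with no state, and the ranges were apart. Sc5d in anti-PD-1 1 was not below the mean of the other classes. The class was 59.99% G1, and among G1 cells 8 genes passed, beside 42.8% of all genes, while Mvd did not and Tm7sf2 was too low to be tested. Interferon-responding cells had 1 call, Npc2 at 0.25 ± 0.04, beside 4.64% higher and 1.65% lower genes, and among G1 cells 1 call beside 2.43%. There were 2 calls without anti-PD-1 2 (Fdps added), beside 4.71%, and 2 without IgG (Abcg1 added), beside 4.51%.

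**Figure D4:**
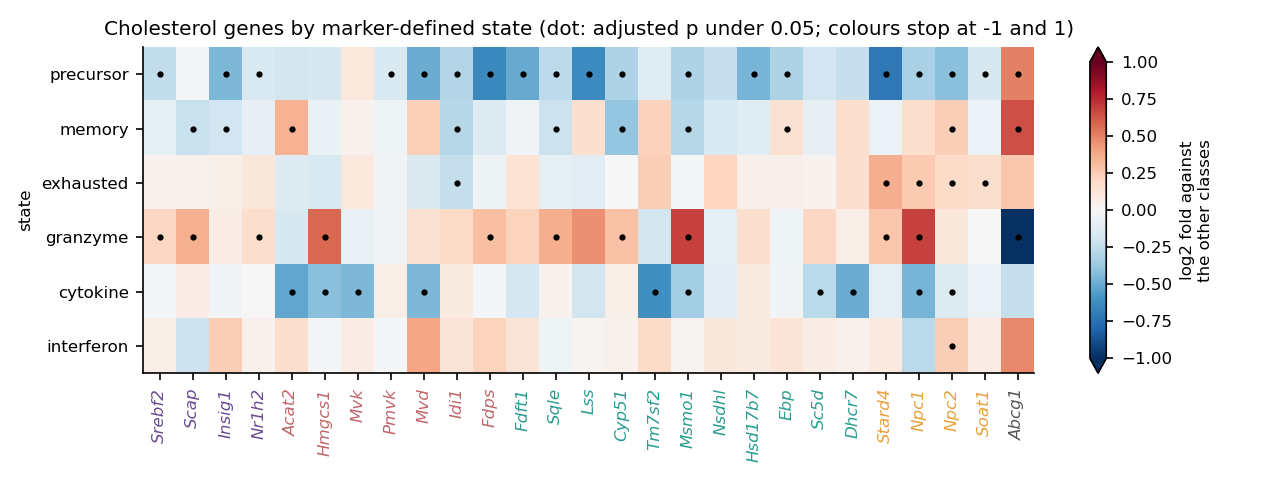
Log2 difference of each tested gene in each of 6 marker-defined states against the mean of the other classes, as colour from -1 to 1, with a dot where the adjusted p was under 0.05. The precursor row is mostly blue with 18 lower genes, the granzyme row mostly red with 10 higher genes, and Abcg1 runs from 0.65 in memory-like cells to -1.37 in granzyme-high cells.

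Markers of other cell types summed to 18.3 to 47.5 CPM in the 6 states and to 25.4 to 402 in cells with no state, which enter every contrast. Without the cells that carry them 59 member calls stood over the 6 states, beside 32% of all genes and states, against 56 with them, beside 31.7%. Of the 19 other sterol genes tested, 5 were lower and 2 higher in precursor-like cells, and 1 was lower and 2 higher in granzyme-high cells, shares close to the background of these states or below it.

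The last comparison asked whether the genes move together from cell to cell. An index was formed as the share of a cell's UMIs in Hmgcs1, Sqle, Idi1 and Insig1, and the 1 in 5 cells with the highest index were compared with the 1 in 5 with the lowest in the same library and depth class, 4592 cells each. These 4 genes were used to choose the cells, so their own differences are no result. For scale, Hmgcs1 stood at 119, 119, 161 and 158 in high cells and at 3.47, 2.52, 2.12 and 0.31 in low cells. Of the 24 genes held out, 23 were tested, and 16 were higher and 2 lower in high cells, beside 4.83% and 7.98% of 11063 genes.

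All 5 held-out mevalonate enzymes and 9 of 10 held-out sterol enzymes were higher. Msmo1 stood at 62.4, 58.3, 74.3 and 54.9 in high cells and at 14.4, 14.3, 13.6 and 14.3 in low cells, a log2 difference of 2.09 ± 0.07 (adjusted p = 3.8e-12). Cyp51 stood at 142, 129, 190.5 and 167 against 34.0, 28.04, 34.5 and 47.5, a difference of 2.07 ± 0.07. Fdps stood at 161, 164, 198 and 159.8 against 47.8, 48.1, 55.8 and 57.4, a difference of 1.64 ± 0.05 (adjusted p = 5.8e-13). No library's low cells reached the high cells of any library for these 3 genes.

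The other large differences were in Acat2 (1.74 ± 0.11), Hsd17b7 (1.70 ± 0.09), Mvd (1.65 ± 0.12), Lss, the lanosterol synthase (1.47 ± 0.11), Sc5d (1.26 ± 0.06), Fdft1 (1.17 ± 0.06), Pmvk (0.87 ± 0.04), Srebf2 (0.83 ± 0.05) and Stard4 (0.70 ± 0.06). Srebf2 and Msmo1, which did not pass in S phase, were thus both higher here. Mvk, Dhcr7, Nsdhl and Tm7sf2 also passed, between 0.70 and 0.90. Tm7sf2 was not higher in anti-PD-1 1 (a log2 difference of -0.01 on CPM plus 1), its ranges overlapped, and it did not pass without anti-PD-1 2, anti-PD-1 3 or IgG.

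Export and lysosomal transport were not among the genes that rose. Abcg1 was lower in high cells, at 3.34, 5.35, 2.17 and 5.27 against 9.05, 6.83, 6.92 and 6.93, a difference of -0.97 ± 0.19 (adjusted p = 0.0020), with the ranges apart. Npc2 was lower by -0.14 ± 0.03 with overlapping ranges. With cells thinned to 2000 UMIs neither passed. With DESeq2, which gave an adjusted p for 20 of the genes and not for Abcg1, Lss and Tm7sf2, 14 were higher and 0 lower, beside 2.09% and 5.92% of the 7417 genes with an adjusted p, and Npc2 did not pass. Ebp (0.03, 95% interval -0.05 to 0.10), Scap (0.02, -0.14 to 0.19), Nr1h2 (-0.07, -0.17 to 0.02), Soat1 (0.09, -0.02 to 0.20) and Npc1 (0.12, -0.03 to 0.28) did not pass, and these intervals lie below the difference of every held-out gene that rose.

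**Figure D5:**
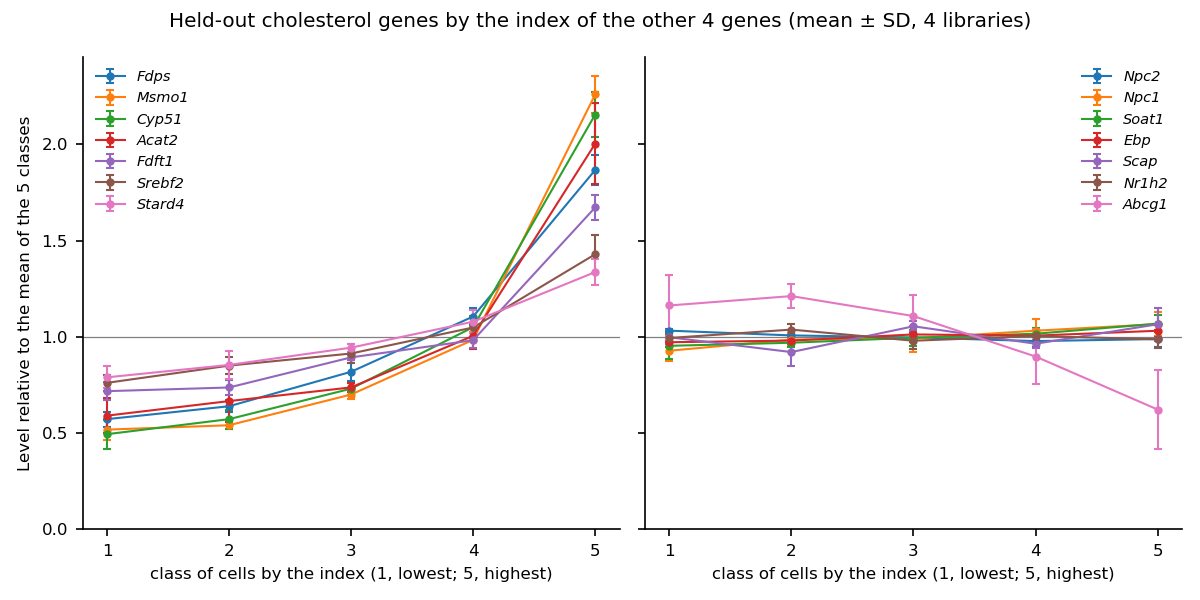
Level of held-out genes in 5 equal classes of cells by the index (1 lowest, 5 highest), relative to the gene's mean over the 5 classes, as mean ± SD of 4 libraries. Genes in the left panel rise with the index, those in the right panel stay near 1, and Abcg1 falls in the upper classes.

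Phase moved with the index, with 41.9% of high and 53.4% of low cells in G1. Among G1 cells alone 16 genes passed, all of them among the 18, beside 5.31% of all genes in either direction, and Npc2 did not, while Tm7sf2 was too low to be tested. With cells thinned to 2000 UMIs 8 genes passed, all among the 18 and all higher, beside 2.21% of all genes. Acat2, Mvd, Lss, Stard4, Mvk, Dhcr7 and Nsdhl did not pass there, nor did Abcg1 and Npc2, and Tm7sf2 was too low to be tested. Most low cells held no UMI of the 4 index genes, from 80.4% in anti-PD-1 1 to 99.2% in IgG, so in the shallow library low means not detected. Markers of other cell types summed to 29.0 to 103 CPM in high and 28.1 to 971 in low cells. With an index of Cyp51, Msmo1, Fdft1 and Lss, which were then left out and the first 4 index genes counted, 18 of 23 genes passed, 16 higher and 2 lower, beside 10.9% of all genes. Of the genes held out of both indices 14 passed with either, in the same direction.

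Genes outside the list also followed the index. Of 14 tested fatty acid genes 11 were higher and none lower, and of 19 other sterol genes 5 were higher and 1 lower, beside 4.83% and 7.98% of all genes. Among the genes with the smallest p and a like direction in all libraries, the desaturase Scd2 was higher by 1.33 ± 0.06. Lower in high cells were the chemokines Xcl1 (-0.94 ± 0.04), Ccl4 (-0.82 ± 0.04) and Ccl5 (-0.36 ± 0.02), and Rgcc (-1.10 ± 0.08), Gch1 (-0.66 ± 0.05), Zfp36l1 (-0.56 ± 0.04) and the ubiquitin gene Ubb (-0.29 ± 0.02). Ccl4 stood at 2796, 2838, 2519.8 and 1942 in high cells and at 4744, 4753, 4961 and 2852 in low cells. Xcl1 is itself on the precursor list of state markers and Ccl4 on the cytokine list. Whether their differences go with the states of the cells was not tested.

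Finally, each knockout was set against sgNT cells under anti-PD-1. The study followed Elovl1, which elongates very long chain fatty acids, and 188 sgElovl1 cells were set against 1420 sgNT cells. None of 26 tested genes of the list passed with edgeR, with 2 at an unadjusted p under 0.05, and DESeq2 called 0, beside 0.0106% of 9419 genes. Those 2 were Idi1 (0.46 ± 0.21), at 85.2, 55.7 and 76.8 against 54.3, 45.9 and 56.4, and Srebf2 (0.32 ± 0.16), at 72.4, 60.6 and 65.5 against 55.6, 46.4 and 55.7. In each library both were higher in sgElovl1 cells, by differences that did not survive adjustment. The median over the members was 0.00. Elovl1 RNA itself stood at 28.8, 45.1 and 41.8 in sgElovl1 and 45.4, 40.3 and 47.7 in sgNT cells (-0.19 ± 0.18), and a frameshift from Cas9 need not lower it, so this checks nothing.

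Over all 74 targets 1924 pairs of member and target were tested with edgeR and none passed, nor any of the 1879 with an adjusted p from DESeq2, with 75 (3.90%) at an unadjusted p under 0.05, against 3.57% over all genes, and beside 0.0461% of all pairs that passed. The median over the members ran from -0.20 for Pi4k2b to 0.31 for Acsl5, an acyl-CoA synthetase with 104 cells, where 8 members had an unadjusted p under 0.05 and the smallest adjusted p was 0.67. The sgElovl1 group held 50 to 70 cells in each anti-PD-1 library.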

How the data were processed

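The 28 genes and all lists were chosen with earlier results of these data known. Gene expression of CD90.1+ OT-I T cells was read by 10x Genomics Single Cell 3′ v3.1 chemistry in 3 anti-PD-1 libraries and 1 IgG library, with a guide enrichment library for each. Raw UMI counts for each gene and cell were deposited, which the authors made with Cell Ranger 3.1.0 against mm10, and the submitters' notes also name Seurat and R 3.6.3, whose output was not used here. The authors' guide calls per cell were used as deposited. The number of columns of unmapped samples left unused was 0. Total gene UMIs were 142945121 to 155974184 per library over all barcodes and 48182760 to 88543446 over the kept cells.

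Cells were kept with exactly 1 called guide, a log10 UMI count no further than 3 median absolute deviations from the median of the library and at most 10% mitochondrial UMIs. No doublet caller was run, and 324 to 2136 barcodes per library with more than 1 guide were left out. Phase was called per library with scanpy 1.11.5. State scores were means of log1p counts per 10000, scaled within library and 10 classes of depth. Cells are not replicates, so UMI counts were summed per class and library (at least 10 cells) and tested with the edgeR 4.0.16 quasi-likelihood test (TMM, filterByExpr, R 4.3.3), with the library as a block where a library gives several sums. Those sums are paired because they come from the same library. The treatment comparison has 1 IgG library, which is assumed to vary like the others. G2M against S was read from the same fit as the other phases and was added after the data were seen. Adjusted p-values are Benjamini-Hochberg over all genes of a comparison with a threshold of 0.05. The SE of a log2 fold change is its size over the root of the F statistic, its 95% interval uses the t distribution on the degrees of freedom of that test, and levels are CPM of summed gene counts.

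In each comparison the members named are all that passed, or the 12 with the smallest p, and outside the list the 10 genes with the smallest p in the index comparison among those with at least 20 CPM and one direction in all 4 libraries, of which 2 are not reported here. Knockout sums (74 targets in at least 2 libraries) used the 3 anti-PD-1 libraries. The scripts were tested on simulated data. Alternatives were DESeq2 1.42.0, its size factors in edgeR, no filter on low counts, each library left out, sgNT cells, G1 cells, other score limits, another index, thinning to 2000 UMIs, cells of other types left out, and the inferred library pairs as a term or taken apart. Promoters and their build, GRCm38.p6, are from RefSeq. In the 3′ counting, genes without reads at the annotated end are missed, and depth sets what is detected.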

Additional observations from a re-analysis of the deposited data

How the results depend on the processing

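Counts below are of cholesterol genes that passed. Between treatments the count of 0 became 4 without anti-PD-1 3 and was 0 in the other alternatives run, so that leaving out one anti-PD-1 library gave 0 to 4, and a fit without the IgG library could not be made. Those 4 were a smaller share of the members tested than the share of all genes that passed in the same fit. With sgNT cells alone, which were fewer, 13 genes passed in S and 9 in G2M against G1, beside 34.1% and 33.2% of all genes. Within anti-PD-1 1 and 2 the G2M count was 13, beside 45%. Both of these G2M shares were close to the background. Without the replicate block, that is with the phases of a library not treated as paired, 15 passed in S and 12 in G2M, beside 30.1% and 30.7% of all genes. Thinning lowered the index comparison from 18 to 8, beside 2.21% of all genes, and neither of its decreases, Abcg1 and Npc2, passed there. Leaving out each library in turn gave 20 to 23 in S, 18 to 21 in G2M, 44 to 50 over the 6 states (56 with all) and 16 to 18 for the index, beside 51.7% to 57%, 51.1% to 54.7%, 24.2% to 26.8% (31.7% with all) and 8.46% to 10.6% of all genes. By state, the count moved by more than 1.5 times without anti-PD-1 1 (3 in exhausted-like cells), anti-PD-1 2 (2 in interferon-responding cells, with Fdps added), anti-PD-1 3 (6 in memory-like cells) and IgG (6 in granzyme-high cells, 2 in interferon-responding cells, with Abcg1 added), where 29.5%, 4.71%, 34.8%, 16.6% and 4.51% of all genes passed, in the same order. Both knockout counts were 0 in every alternative, DESeq2 and the added IgG library included. In the phase, state and index comparisons no named gene that passed changed direction in the alternatives that tested it. Without anti-PD-1 3 the log2 treatment difference was -0.35 for Sc5d, -0.33 for Cyp51, -0.35 for Npc1 and 0.31 for Hsd17b7. With all libraries and the pair as a term it was 0.14, 0.02, 0.01 and 0.26, in the same order. Both libraries of the other pair were anti-PD-1, so these later values rest on anti-PD-1 3 against IgG alone. The treatment comparison rests on a single IgG library, whose cells were also the shallowest.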

Other observations

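Fatty acid genes and further sterol genes were also counted in the marker-defined states. Of 12 tested fatty acid genes, 5 were higher and 1 lower in memory-like cells, 3 higher and 2 lower in precursor-like cells, 2 higher and 0 lower in granzyme-high cells, and 1 higher and 5 lower in cytokine-high cells. Over all genes the shares higher and lower were 21.4% and 20.8% in memory-like, 19.8% and 20.9% in precursor-like, 11.4% and 11.5% in granzyme-high and 23.1% and 20.4% in cytokine-high cells, so the counts in precursor-like cells were close to the background. In precursor-like cells the median log2 difference was 0.00 over these 12 genes and -0.26 over the 27 cholesterol genes. In granzyme-high cells the same medians were 0.10 and 0.18, and in cytokine-high cells -0.13 and -0.10. Of 19 further sterol genes, 2 were higher and 5 lower in precursor-like cells, 3 higher and 2 lower in memory-like cells and 4 higher and 4 lower in cytokine-high cells. The difference between the lists was not tested.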
